A study of Mus musculus with 40 samples.

Results

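The genes described here are 10 genes of glycolysis and of the response to low oxygen, Slc2a1, Hk2, Pfkp, Pgk1, Eno1, Ldha, Vegfa, Ankrd37, Egln3 and Bnip3, out of 37310 genes in the table of RNA sequencing counts. All 10 were among the 15630 genes tested. The samples came from female SWR/J and A/J mice, entered into the study at about 8 weeks of age, in which topical N-nitrosotris-(2-chloroethyl)urea (NTCU), an alkylating carcinogen, gives rise to squamous lesions of the lung. Of the 40 samples sequenced, 25 passed the study's quality control and were used. There were 7 normal samples of vehicle-treated mice (0 µmol NTCU; 4 SWR/J and 3 A/J), 5 of mild dysplasia (all SWR/J, 15 µmol in total) and 13 high-grade samples (8 SWR/J at 25, 30 or 50 µmol and 5 A/J at 14 or 20 µmol). The high-grade group joined 9 samples of moderate to severe dysplasia, 2 of severe dysplasia and 2 of carcinoma in situ or squamous cell carcinoma (CIS/SCC). Tissue was taken by laser capture microdissection (LCM; 13 samples) or as a whole lung section (12 samples), so each level is an average over cells, in which fewer cells of a type and less RNA per cell cannot be told apart. All lesions came from treated mice, and in SWR/J the high-grade samples had higher doses than the mild ones, so grade and dose cannot be told apart. No label tied samples to mice, so some may share an animal and the p-values then measure the spread between samples. Of the samples used, 1 graded normal (SM1) and 1 graded mild (7c) carried a description of another histology.

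Glycolysis splits glucose into pyruvate in the cytosol, and Slc2a1 (GLUT1) brings the glucose in. Hk2 and Pfkp carry out committed early steps, Pgk1 and Eno1 later ones, and Ldha turns pyruvate into lactate. When oxygen is low, the hypoxia-inducible factors (HIFs) escape destruction and raise many of these genes, together with Vegfa, the growth factor of blood vessels, Egln3, a prolyl hydroxylase that marks HIF for destruction, Bnip3, a mitochondrial protein of mitophagy and cell death, and Ankrd37, an ankyrin repeat protein. Squamous tumours are known for high Slc2a1, and in normal lung alveolar type 1 cells are a source of Vegfa for the neighbouring capillaries.

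HIFs bind the letters ACGTG or GCGTG, and both were searched on both strands of the RefSeq promoter windows, which run from 250 bases before to 50 bases after each start (GRCm38.p6). Overlapping matches were counted as 1 stretch. All 10 genes matched the table, with 14 windows in all because Ldha, Eno1 and Vegfa have more than 1 start, and 13 of the 14 windows held a stretch. The Eno1 windows that begin at 150236947 and 150236974 overlap and hold the same 2 stretches, so those stretches were counted in both. Of all 32851 windows, 43.8% held at least 1 stretch and 2.44% held 4 or more. Pfkp and Bnip3 held 4 each, and Ldha held 5 in its first window. The windows of Ldha and Pgk1 are shown because these genes rose and fell together most closely across samples, and the window of Vegfa because Vegfa did not follow them. They lie at chr7:46845554-46845853 (plus strand), chrX:106186850-106187149 (plus strand) and chr17:46032328-46032627 (minus strand), with matching stretches in capitals.
Ldha: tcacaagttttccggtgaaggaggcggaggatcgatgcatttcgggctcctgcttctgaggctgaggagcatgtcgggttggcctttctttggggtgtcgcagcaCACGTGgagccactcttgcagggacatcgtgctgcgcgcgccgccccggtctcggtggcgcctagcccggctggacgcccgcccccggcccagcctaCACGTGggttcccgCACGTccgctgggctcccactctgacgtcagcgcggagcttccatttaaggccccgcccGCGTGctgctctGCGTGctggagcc
Pgk1: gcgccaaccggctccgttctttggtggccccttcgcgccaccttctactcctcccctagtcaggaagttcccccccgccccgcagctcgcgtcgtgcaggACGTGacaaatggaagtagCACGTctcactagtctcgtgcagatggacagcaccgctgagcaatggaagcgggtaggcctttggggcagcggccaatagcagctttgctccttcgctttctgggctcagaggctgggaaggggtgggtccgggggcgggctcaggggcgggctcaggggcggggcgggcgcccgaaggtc
Vegfa: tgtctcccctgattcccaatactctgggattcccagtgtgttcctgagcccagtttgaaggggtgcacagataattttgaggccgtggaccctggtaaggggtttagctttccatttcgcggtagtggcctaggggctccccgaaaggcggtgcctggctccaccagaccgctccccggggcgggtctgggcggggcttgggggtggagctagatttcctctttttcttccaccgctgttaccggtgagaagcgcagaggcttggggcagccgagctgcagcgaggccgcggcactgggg
The stretches began 145, 48 and 34 bases before the Ldha start and 25 and 37 bases after it, and 150 and 131 bases before that of Pgk1. The Vegfa window held none, while that of its other listed start held 2. A match is a string of letters, not a measured binding site. Sequence outside the windows was not searched, so a window without a match does not mean a gene without one. Whether the matches go with the levels across samples was not tested.

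Total counts ran from 2667387 to 16534728 per sample. The median transcript integrity number (TIN), a measure of how evenly reads cover transcripts, ran from 21.7 to 75.1, and 6 samples were under 40: normal sample 71, mild sample 5 and high-grade samples 42, 45, 78 and 79. Lung markers were present throughout, since none of the 6 alveolar type 2 or 4 club cell markers was at 0 in any sample, with summed levels of 1060 to 36204 CPM (counts scaled to library size) and 730 to 202492 CPM. Other tissue was present too, and the skeletal muscle markers summed to between 2.65 and 8813 CPM.

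Levels are given as log2 CPM, on which 1 unit is a doubling. Scaled by length, Ldha was the most abundant of the 10 genes, with a median over the 25 samples of 224 CPM per kb of exon. Pgk1 followed at 108 CPM per kb and Eno1 at 56.3. Next came Bnip3 at 28.3, Vegfa at 22.3 and Slc2a1 at 13.9, with Hk2 at 8.81, Pfkp at 6.85 and Ankrd37 at 6.82, and Egln3 last at 3.94. The enzymes of the late steps were above those of the early steps. The length joined every annotated exon of a gene, 9395 bases for Pfkp and 5969 for Hk2, so close places depend on that choice. Pfkp and Ankrd37 were next to each other in this order and differed by far less than either varied between samples.

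The genes differed in how far they ranged. Pfkp varied least, with an SD over the 25 samples of 0.50 in log2 CPM, against a median SD of 0.73 over all tested genes. Egln3 varied most, with an SD of 1.79 and a 145-fold gap between its lowest sample (1.91) and its highest (9.09). Ankrd37 spanned 14.7-fold, Vegfa 14.0-fold and Eno1 11.9-fold, and Hk2 ran from 3.50 to 7.59. The genes with many near copies need care, because 46.5% of the distinct 50-base stretches of Eno1 transcripts, and 67.8% of those of Pgk1, also occur in another annotated gene. The Eno1 copy Gm5506 held 35.1% to 54.9% of the joint Eno1 and Gm5506 signal in a sample, and the Pgk1 copy Pgk1-rs7 held 0 to 10.5%.

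The first question was whether these genes change with dysplasia grade, since squamous lesions are often glycolytic. No gene was called in the high-grade group against the normal group (edgeR quasi-likelihood test, adjusted p under 0.05), where 0.0192% of all tested genes were called. The fitted differences were small against their errors, with 8 of 10 genes above 0 and a median of 0.25 on the log2 scale, against −0.01 over all genes tested. At an unadjusted p under 0.05 the count was also 0, where 9.14% of all tested genes passed, and DESeq2 called 0 of the 10 as well.

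**Figure D1:**
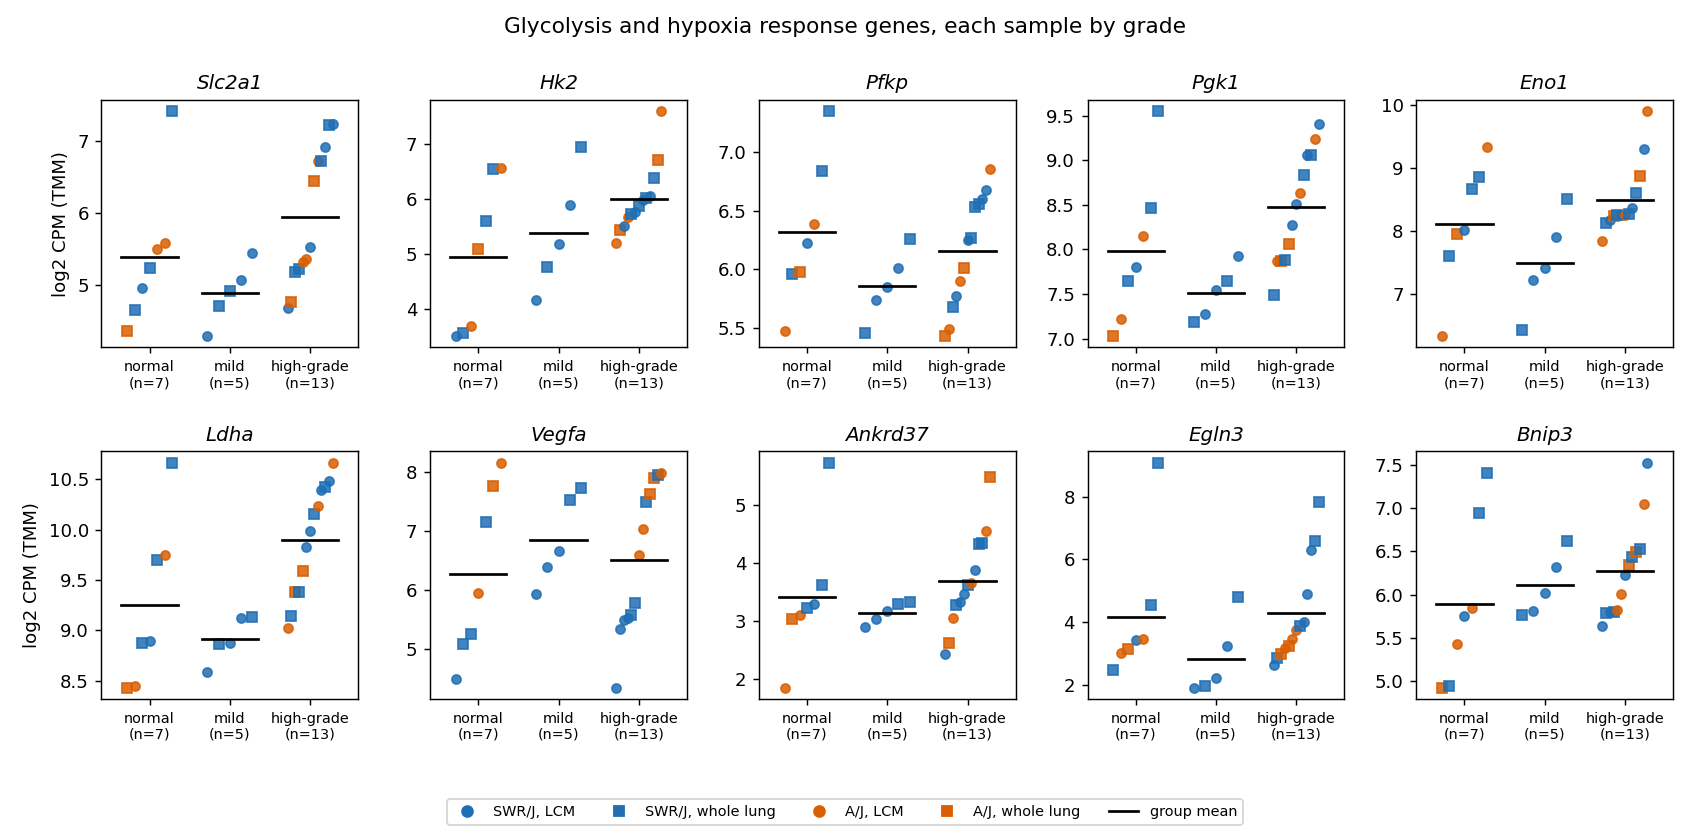
Log2 CPM of each of the 10 genes in every sample, by grade on the x axis (normal, n = 7; mild dysplasia, n = 5; high-grade, n = 13), with colour for strain, shape for LCM or whole lung and a black line for the group mean. The groups overlap in every panel, and normal sample 71 is the highest normal sample for Slc2a1 (7.42) and Egln3 (9.09).

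Hk2, hexokinase 2, which traps glucose as glucose 6-phosphate, had the largest fitted difference. Its log2 CPM ran from 3.50 through a median of 5.10 to 6.57 in the normal samples, and from 5.20 through 5.88 to 7.59 in the high-grade samples. The high-grade samples sat in and above the upper part of the normal range, and 4 normal samples (2B, 46, 72 and 81) were below all 13 of them. The fitted log2 difference was 0.71 ± 0.47 (SE), with an adjusted p of 0.646 in edgeR. Its mean difference was above 0 in LCM (1.38) and whole lung (0.83), and in SWR/J (1.11), and in A/J it was the gap between means of 6.12 and 5.12.

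Ldha, lactate dehydrogenase A, ran from 8.43 through a median of 8.90 to 10.67 in the normal samples and from 9.03 through 9.99 to 10.66 in the high-grade samples. The groups had nearly the same top, because normal sample 71 stood at 10.67. The fitted log2 difference was 0.39 ± 0.30 (SE; adjusted p 0.683, edgeR). Pgk1, phosphoglycerate kinase, had medians of 7.81 in normal and 8.52 in high-grade samples, and its fitted log2 difference was 0.20 ± 0.30. Eno1, enolase, had medians of 8.02 and 8.25 and a fitted log2 difference of 0.28 ± 0.37. Pfkp, the platelet form of phosphofructokinase, went the other way in the fit, at −0.32 ± 0.22, with medians of 6.22 and 6.24.

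Slc2a1 had a median of 5.24 in the normal samples, with a range of 4.36 to 7.42, and of 5.52 in the high-grade samples, with a range of 4.68 to 7.24. Its fitted log2 difference was 0.23 ± 0.40 (SE). Within the high-grade group the values fell on both sides of a gap: 7 samples lay between 4.68 and 5.52 and 6 between 6.45 and 7.24. Both CIS/SCC samples (49 and 84) were among the 6, at 6.72 and 6.45, with both severe samples (42 at 6.91 and 79 at 6.72) and moderate to severe samples 45 and 78 at 7.24 and 7.22. Samples 42, 45, 78 and 79 were also the only high-grade samples of TIN under 40, so the gap followed RNA integrity as well as grade.

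Among the other hypoxia response genes, Vegfa ran from 4.50 to 8.15 in normal and 4.35 to 7.98 in high-grade samples, with a fitted log2 difference of 0.36 ± 0.40. Bnip3 had medians of 5.75 and 6.23 and a log2 difference of 0.26 ± 0.34. Ankrd37 had medians of 3.23 and 3.61 and a log2 difference of 0.10 ± 0.41. Egln3 had medians of 3.42 and 3.75, but its fitted log2 difference was −0.63 ± 0.69, and it was 0.11 without the 6 samples of TIN under 40, a setting chosen after seeing the data. Adjusted p-values of all 10 genes lay between 0.646 and 0.951 (edgeR). Of the marker lists of other cell types, 0 genes were called in this comparison, with the largest list medians at 2.00 for 6 neutrophil and 1.59 for 6 skeletal muscle markers (log2 difference). In mild dysplasia against normal 3 of 6 lymphocyte and 3 of 6 cell cycle markers were called lower and 1 of 6 alveolar type 1 markers higher. In that comparison 12.4% of all tested genes were called.

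In mild dysplasia most fitted differences were below 0, among them Pfkp and Egln3, which were below 0 in the high-grade group as well. No gene was called against normal by edgeR or DESeq2, where edgeR called 12.4% of all tested genes, and 0 of the 10 had an unadjusted p under 0.05, where 32.7% of all tested genes did. Of the 10 fitted differences 8 were below 0, with a median of −0.40 against −0.02 over all genes. Egln3 was 1.91, 1.97, 2.22, 3.25 and 4.80 in the 5 mild samples, against a normal median of 3.42, and 4 of these 5 values were below that median. Its fitted log2 difference was −1.15 ± 1.33 (SE), an error larger than the value. Eno1 was 6.42, 7.22, 7.40, 7.90 and 8.51 in the mild samples, with a log2 difference of −0.72 ± 0.51. The exceptions in sign were Hk2, at 0.83 ± 0.69, and Vegfa, at 1.16 ± 0.57 (adjusted p 0.163, edgeR). Vegfa was called here when normal sample 46 was left out, at 1.63 ± 0.53 (adjusted p 0.0376). It was 5.92, 6.39, 6.65, 7.52 and 7.73 in the mild samples, inside the normal range of 4.50 to 8.15. Many marker lists also moved here: all 6 endothelial markers were above 0 (median log2 difference 1.28, 0 called), as were all 6 alveolar type 1 (1.47, 1 called) and all 6 alveolar type 2 markers (1.35, 0 called). All tested heart muscle (median 2.42), erythroid (2.04) and ciliated cell markers (1.67) were above 0 as well, with 0 called. The lymphocyte (−3.57), cell cycle (−2.08) and skeletal muscle (−1.48) lists had medians below 0. The part of these lists in the Vegfa difference was not tested. The other 6 genes lay between −0.56 (Pgk1) and −0.09.

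In high-grade against mild dysplasia no gene was called by edgeR or DESeq2 and 0 had an unadjusted p under 0.05, where edgeR called 0.326% of tested genes and 22.5% had an unadjusted p under 0.05. The late glycolytic enzymes had the largest fitted differences for their error: Eno1 0.998 ± 0.529, Ldha 0.82 ± 0.43 and Pgk1 0.76 ± 0.43 on the log2 scale (SE; adjusted p 0.265, 0.260 and 0.303, edgeR). Vegfa was at −0.80 ± 0.52, and the other 6 genes lay between −0.12 (Hk2) and 0.61 (Slc2a1). When TIN was left out of the model Ldha and Pgk1 were called, at 1.22 and 1.30, while in whole lung samples alone they were at −0.55 and −0.57. Over the rank of grade, from normal to CIS/SCC, no gene was called by either tool and 0 had an unadjusted p under 0.05, where edgeR called 0.262% of tested genes and 13.7% had an unadjusted p under 0.05. Slopes per rank ran from −0.22 (Egln3) to 0.19 (Ankrd37 and Slc2a1). The mild and severe samples were all SWR/J and the CIS/SCC samples all A/J, so rank and strain overlap in part.

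**Figure D2:**
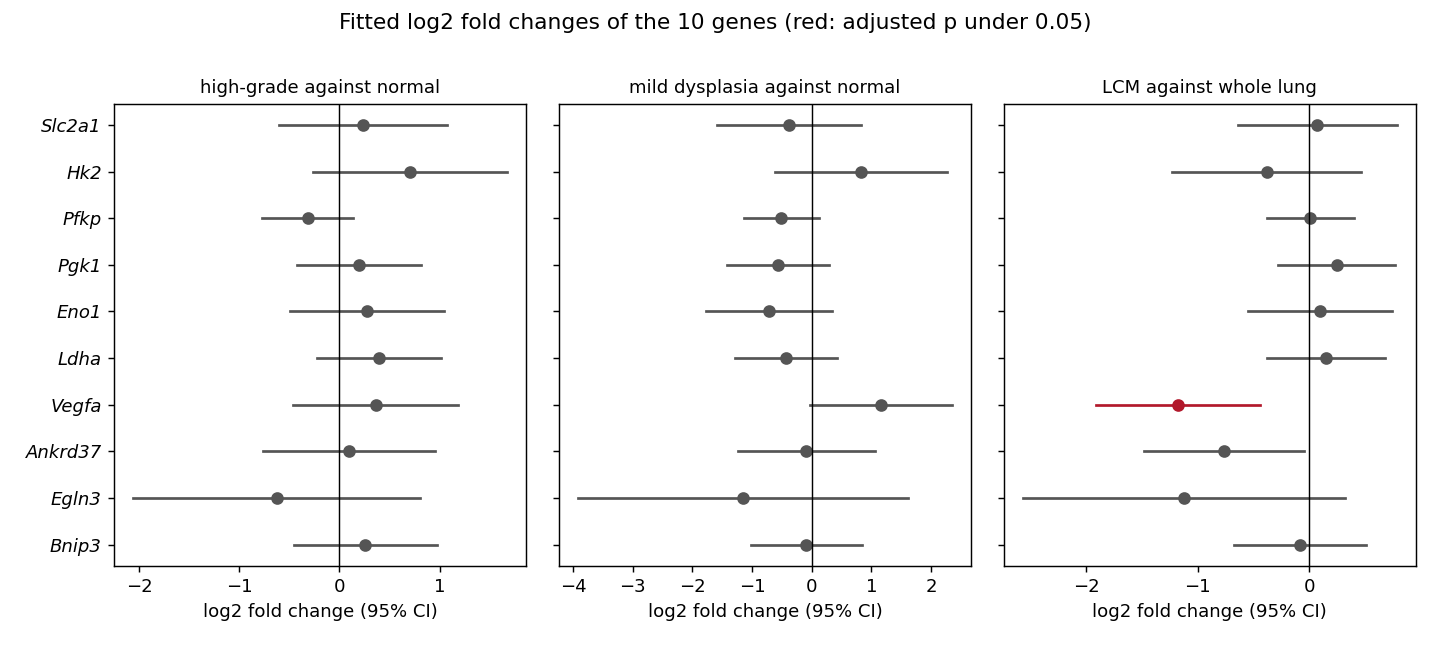
Fitted log2 fold changes of the 10 genes (points) with 95% confidence intervals (lines) for high-grade against normal, mild dysplasia against normal and LCM against whole lung. Every interval crosses 0 in the first 2 panels, and Vegfa, in red, is called in the third at −1.18.

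The genes were set beside the rest of the pathway. Of 28 tested other glucose transporters and glycolytic enzymes, 22 were above 0 in high-grade against normal, with a median log2 difference of 0.30, and 0 were called. Against normal, mild dysplasia had 1 of the 28 called higher, Pfkfb2, a regulator of phosphofructokinase (1.39 ± 0.39, SE; adjusted p 0.0298, edgeR), and 1 lower, Pdk1, which holds pyruvate back from the mitochondria (−1.53 ± 0.47; adjusted p 0.0407), where 12.4% of all tested genes were called. Of 23 other hypoxia-induced genes, 15 were above 0 in the high-grade group and 0 were called. In mild dysplasia Lox (1.93 ± 0.62) and Plod2 (1.51 ± 0.35), which both modify collagen, were among those called higher, and Mif, a cytokine, was called lower (−1.51 ± 0.44). Among 9 HIF subunits and oxygen sensors, 1 was higher in mild dysplasia, Epas1, the HIF-2α subunit that is abundant in lung endothelium, at 1.45 ± 0.47, where 12.4% of all tested genes were called and all 6 endothelial markers were above 0 (median 1.28). In high-grade against normal 0 of these 9 were called.

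The second question was how the source of the tissue moved the genes. Vegfa was called lower in LCM than in whole lung, and it was the only one of the 10 genes called, where 14.6% of all tested genes were called. Vegfa ran from 4.35 through a median of 5.95 to 8.15 in the 13 LCM samples, and from 5.09 through 7.50 to 7.95 in the 12 whole lung samples. The ranges overlapped, with A/J LCM samples 46 and 48 (8.15 and 7.98) above every whole lung sample. The fitted log2 difference was −1.18 ± 0.35 (SE; adjusted p 0.0293, edgeR).

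The direction was the same within each strain and grade that held both sources. In high-grade SWR/J samples the means were 5.18 in LCM (n = 4) and 6.70 in whole lung (n = 4). In mild SWR/J samples they were 6.32 (n = 3) and 7.62 (n = 2). In high-grade A/J samples they were 7.20 (n = 3) and 7.76 (n = 2). In normal A/J samples the LCM mean was 7.05 (n = 2) against 7.76 in 1 whole lung sample, and in normal SWR/J samples 1 LCM sample stood at 4.50 against a mean of 5.83 (n = 3). In the fit on SWR/J samples alone the log2 difference of Vegfa was −1.60 (adjusted p 0.0462, edgeR).

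The call did not hold under every choice of samples. It was lost without the 2 samples described with another histology (log2 difference −1.12, adjusted p 0.067), without the 6 samples of TIN under 40 (−0.99, adjusted p 0.106), and when any 1 of samples 2B, 40, 41, 42 or 71 was left out, with adjusted p-values between 0.0516 and 0.0613. It held in the other 20 fits that left out 1 sample.

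Markers of several cell types were lower in LCM beside Vegfa. The 6 endothelial markers summed to 83.5 to 1062 CPM in LCM samples (median 155) and 146 to 1531 CPM in whole lung samples (median 741), with no marker at 0 in any sample, and 5 of the 6 were called lower in LCM. The 6 alveolar type 1 markers summed to 278 to 3399 CPM in LCM (median 1609) and 275 to 4611 CPM in whole lung (median 1477), with 2 of the 6 called lower in LCM, so their summed level was not lower there. The 6 alveolar type 2 markers had a median log2 difference of −1.96 (2 called lower), and the 4 tested erythroid markers one of −2.83 (4 called lower). The macrophage, lymphocyte and neutrophil lists, of 6 markers each, had 2, 2 and 1 called lower. In the other direction, 2 of 4 club cell and 1 of 4 tested ciliated cell markers were called higher in LCM. In this comparison 14.6% of all tested genes were called. Across the 25 samples Vegfa had a Pearson r of 0.87 with the log2 summed endothelial markers, which was 0.87 within LCM and 0.89 within whole lung. With the summed alveolar type 1 markers r was 0.73, and it was 0.64 within LCM and 0.88 within whole lung. With the summed alveolar type 2 markers r was 0.68, and it was 0.74 within LCM and 0.60 within whole lung. The airway lists also went with Vegfa within each source. For the club cell sum r was 0.48, and it was 0.69 within LCM and 0.55 within whole lung. For the ciliated cell sum these were 0.40, 0.56 and 0.67, and for median TIN 0.44, 0.63 and 0.35. The samples share library preparation and RNA integrity, and the part of cell content in the Vegfa difference was not tested.

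**Figure D3:**
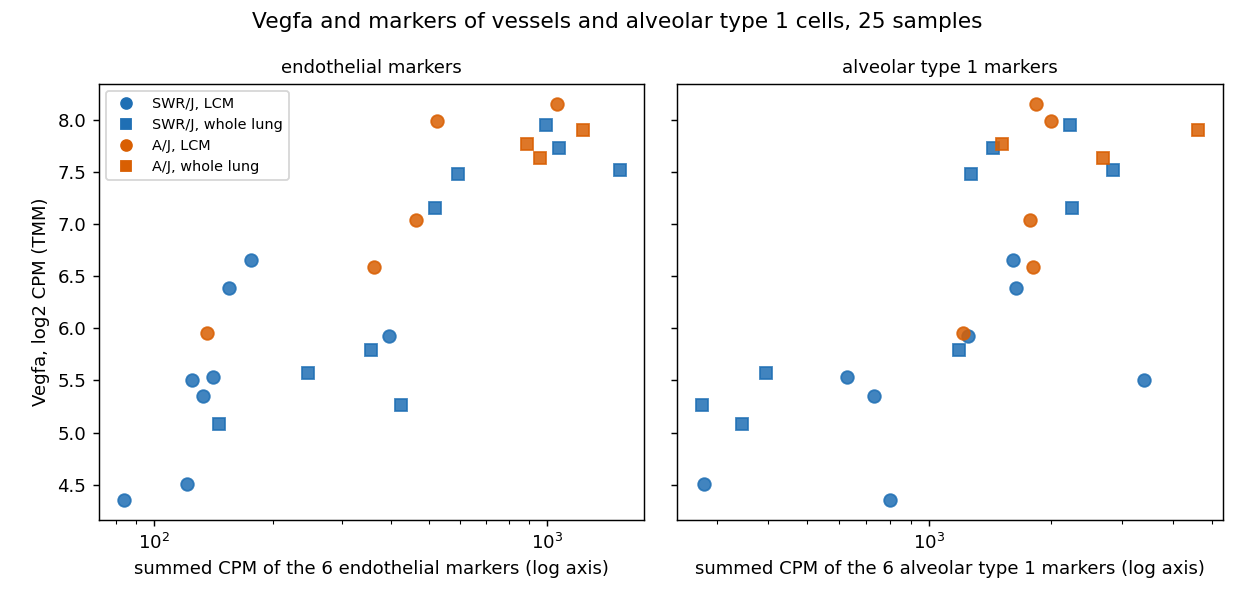
Vegfa (log2 CPM, y axis) against the summed CPM of 6 endothelial markers (left) and 6 alveolar type 1 markers (right; log axes), 1 point per sample, with colour for strain and shape for LCM or whole lung. Vegfa rises with the endothelial sum in both sources (r = 0.87 over 25 samples), and SWR/J LCM samples take the lower left.

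The receptors of Vegfa were lower in LCM as well. All 9 tested VEGF ligands and receptors were below 0, and 5 were called lower: Flt1 (−1.84 ± 0.31, SE) and Kdr (−1.45 ± 0.38), the main Vegfa receptors, Flt4 (−1.03 ± 0.29), the receptor of lymphatic vessels, and the co-receptors Nrp1 (−1.09 ± 0.22) and Nrp2 (−0.85 ± 0.18). Kdr ran from 3.62 to 7.94 log2 CPM in LCM and from 4.73 to 7.48 in whole lung. In mild dysplasia against normal Nrp2 was called higher, at 1.15 ± 0.29. Of the HIF subunits and oxygen sensors, Hif1an, which hydroxylates HIF on an asparagine (−0.53 ± 0.09), and Arnt, the shared β subunit (−0.34 ± 0.09), were lower in LCM. Of the 28 other glucose transporters and glycolytic enzymes, 2 were called lower, where 14.6% of all tested genes were called: Hkdc1, a hexokinase-like protein (−2.39 ± 0.75) and Slc2a3, the transporter GLUT3 (−1.26 ± 0.32). Slc2a3 is also among the other hypoxia-induced genes.

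Of the other 9 genes in LCM against whole lung, Ankrd37 and Egln3 had the next largest fitted differences for their error. Ankrd37 ran from 1.85 through a median of 3.17 to 4.54 in LCM and from 2.62 through 3.47 to 5.73 in whole lung, with a log2 difference of −0.77 ± 0.35 (SE; adjusted p 0.136, edgeR). Egln3 had medians of 3.42 and 3.55 and a log2 difference of −1.12 ± 0.70, which was −0.039 when mild sample 73 was left out. The other 7 genes lay between −0.38 (Hk2) and 0.24 (Pgk1).

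In A/J against SWR/J edgeR called none of the 10 genes, where 0.992% of tested genes were called, and Vegfa was the 1 gene with an unadjusted p under 0.05, against 17.5% of all tested genes. Vegfa ran from 5.95 through a median of 7.70 to 8.15 in the 8 A/J samples and from 4.35 through 5.79 to 7.95 in the 17 SWR/J samples. The A/J samples lay in and just above the upper part of the SWR/J range. The fitted log2 difference was 1.60 ± 0.55 (SE; adjusted p 0.150, edgeR), and it was called in DESeq2 and in edgeR without TIN. The endothelial markers moved the same way, with all 6 above 0 and a median log2 difference of 1.97, of which 0 were called. Hk2 was at 0.84 ± 0.63, and the other 8 genes lay between −0.44 (Egln3) and 0.64 (Ankrd37). Egln3 was narrow in A/J, from 2.99 to 3.75 over 8 samples, against 1.91 to 9.09 over 17 SWR/J samples. The 6 samples of TIN under 40 were all SWR/J.

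RNA integrity was part of the model, and no gene was called on it by edgeR or DESeq2, where edgeR called 7.31% of tested genes. Per 10 units of median TIN, Slc2a1 changed by −0.38 ± 0.16 on the log2 scale, Pgk1 by −0.24 ± 0.12 and Egln3 by −0.70 ± 0.31 (SE; adjusted p 0.149, 0.191 and 0.160, edgeR), and these were the 3 genes of the 10 with an unadjusted p under 0.05, where 25.7% of all tested genes had one. The other 7 genes lay between −0.28 (Ankrd37) and 0.07 (Vegfa). Slc2a1 was 6.72, 6.91, 7.22, 7.24 and 7.42 in samples 79, 42, 78, 45 and 71, all of TIN under 40, while the sixth such sample, mild sample 5, was the lowest of all at 4.29. Egln3 was 4.91, 6.30, 6.58, 7.82 and 9.09 in samples 42, 45, 79, 78 and 71, and between 1.91 and 4.80 in the other 20 samples. Egln3 was called, at −1.37 ± 0.28 (adjusted p 0.00833), when mild sample 73 was left out. Without the 6 samples the slopes changed sign, to 0.20 for Slc2a1, 0.14 for Pgk1 and 0.30 for Egln3.

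**Figure D4:**
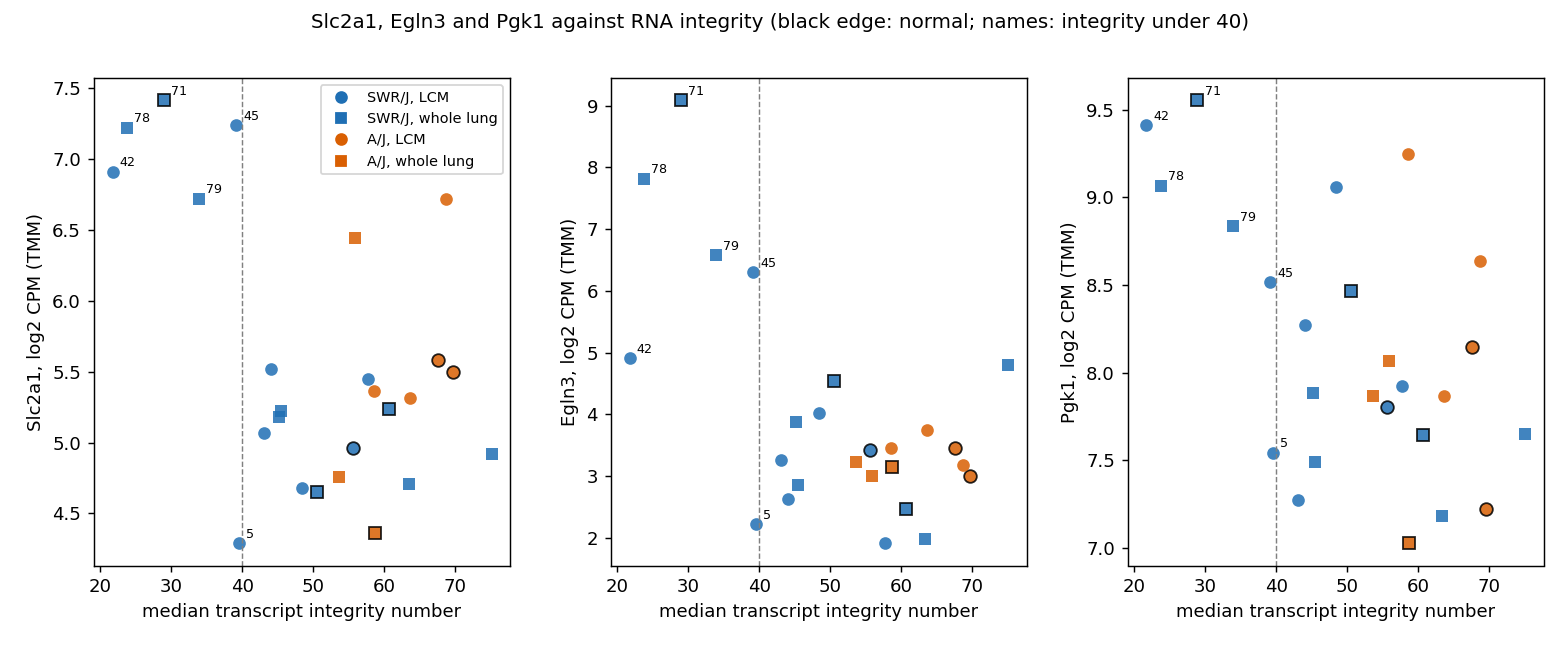
Slc2a1, Egln3 and Pgk1 (log2 CPM, y axes) against median TIN (x axis), 1 point per sample, with colour for strain, shape for source, a black edge for normal samples and sample names for TIN under 40 (left of the dashed line). Samples 71, 78, 79, 45 and 42 hold the 5 highest values of Egln3, from 4.91 to 9.09.

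The same 5 samples were rich in other transcripts. The 7 basal and squamous markers summed to 7703 to 27416 CPM in them and to 88.7 to 4251 CPM in the other 20 samples, and Slc2a1 had a Pearson r of 0.81 with that log2 sum across the 25 samples. It was 0.70 within LCM, 0.89 within whole lung and 0.59 without the samples of TIN under 40. The skeletal muscle markers summed to 1259 to 8813 CPM in the 5 samples and to 2.65 to 1370 CPM in the others, and Egln3 had an r of 0.72 with that sum, and of 0.52 without the samples of TIN under 40. Neither gene went with its list alone. Egln3 had an r of 0.67 with the basal and squamous sum, and of 0.061 without the samples of TIN under 40. Slc2a1 had an r of 0.53 with the skeletal muscle sum, and of −0.17 without those samples. With the neutrophil sum, r within LCM was 0.74 for Slc2a1 and 0.72 for Egln3. Sample 71, graded normal, had the highest squamous sum of all, at 27416 CPM. Their part in the Slc2a1 and Egln3 values was not tested.

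The third question was whether grade acted differently by source or strain. No gene was called for the interaction of high-grade with sample type (0% of tested genes called, 7.15% with an unadjusted p under 0.05) or with strain (0% called, 4.34% with an unadjusted p under 0.05). For source, 9 of 10 genes were above 0, meaning a more positive difference in LCM, with a median of 0.69 against 0.055 over all tested genes. Pgk1 had the smallest p, at 1.03 ± 0.46 on the log2 scale (SE; adjusted p 0.681, edgeR). The other 9 lay between −0.44 (Vegfa) and 2.16 (Egln3). The mean high-grade minus normal difference of Pgk1 was 0.99 in LCM and 0.03 in whole lung. For Ldha it was 1.06 and 0.26, for Eno1 0.69 and 0.12, and for Bnip3 0.62 and 0.18. Normal sample 71 was in the whole lung group. For strain, Ankrd37 had the smallest p, at 1.93 ± 0.72 (A/J above SWR/J; adjusted p 0.970), with a mean difference of 1.21 in A/J and −0.39 in SWR/J. The other 9 lay between −0.83 (Vegfa) and 1.19 (Bnip3). Both CIS/SCC samples were A/J and both severe samples SWR/J, so strain and the mix of high grades cannot be told apart. Ankrd37 was 4.54 and 5.48 in the CIS/SCC samples and 3.04, 3.65 and 2.62 in the other A/J high-grade samples. Normal SWR/J sample 71 stood at 5.73, against 3.23 to 3.62 in the other normal SWR/J samples. DESeq2 called 0 of the 10 genes in either interaction.

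The genes did not form 1 block across samples. Correlations here are of log2 CPM over the 25 samples, which share depth, RNA integrity and cell content, and are descriptions. Of 45 pairs, 19 had a Pearson r above 0.5, and the median was 0.47. Ldha and Pgk1 were the closest pair, with r of 0.97, and 0.96 after removal of TIN, strain and source or without the 6 samples of low TIN. The 5 glycolytic enzymes had r of 0.51 or more in every pair. Vegfa was apart, with r between −0.39 (Pgk1) and 0.23 (Hk2), and 6 of its 9 pairs were below 0, the only pairs that were. Slc2a1 was close to Egln3 (r 0.70) over all samples but not without the 6 samples of low TIN (r −0.23), where it also had r of −0.46 with Pfkp. Egln3 with Pfkp was 0.72 and 0.67.

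**Figure D5:**
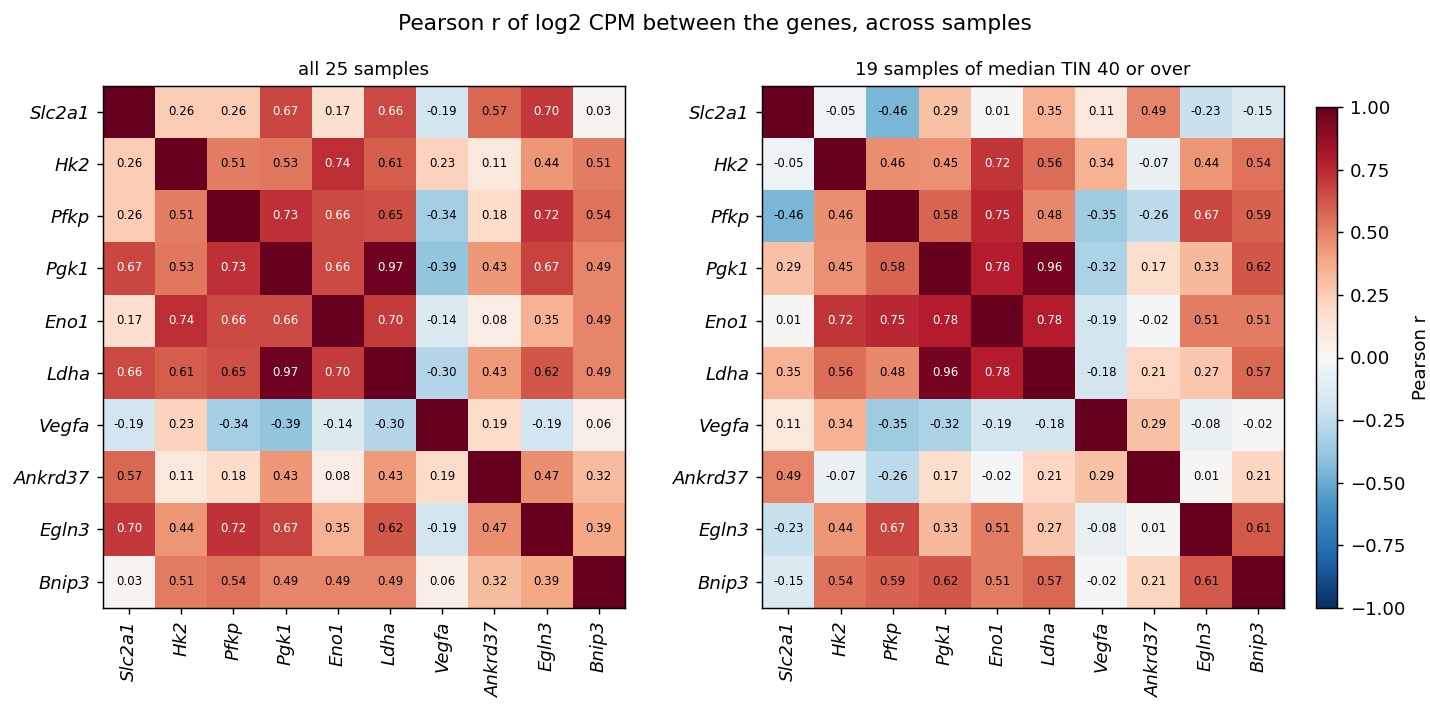
Pearson r of log2 CPM between each pair of the 10 genes over all 25 samples (left) and over the 19 samples of median TIN 40 or over (right), from −1 (blue) to 1 (red). Ldha and Pgk1 stay at 0.97 and 0.96, while Slc2a1 and Egln3 go from 0.70 to −0.23.

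The genes most like each of the 10 were sought among the 14211 genes whose average log2 CPM was 1 or above. Slc2a1 was closest to Klk13, a kallikrein protease (r 0.93), and Tgm1, the transglutaminase that crosslinks the cornified envelope (r 0.92). Egln3 was closest to Pla2g4b and Fabp5, an epidermal fatty acid binding protein (both r 0.92). Vegfa was closest to Gpr116 (r 0.95), an adhesion receptor of lung epithelium and vessels, and Esam, an adhesion molecule of endothelial cells (r 0.93). Ldha was closest to Pgk1 (r 0.97) and Pkm2, pyruvate kinase (r 0.93), and Pgk1 to Ldha and Tpi1, triosephosphate isomerase (r 0.91). Eno1 was closest to Slmo2 (r 0.93) and its copy Gm5506 (r 0.92). Hk2 was closest to Ywhag (r 0.91) and Aacs (r 0.88), and Pfkp to Pigy and Mrpl15 (both r 0.85). Bnip3 had a weaker likeness to its closest gene, Arl4a (r 0.74). The mean z-score of the 10 genes was closest to Pgam1, phosphoglycerate mutase (r 0.91), Tuba8 (r 0.90), Gm15856 (r 0.88), Pkm2 and Acat2 (both r 0.87).

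In the genome (NCBIM37, mm9) the genes lie on 8 chromosomes. Slc2a1 (chr4:118781316-118809935) and Eno1 (chr4:149610830-149622988) are both on chromosome 4, and Ldha (chr7:54096845-54110997) and Bnip3 (chr7:146082519-146101202) both on chromosome 7. Hk2 is at chr6:82675019-82724448, Ankrd37 at chr8:47082256-47085221, Egln3 at chr12:55279968-55304847, Pfkp at chr13:6579014-6648023, Vegfa at chr17:46153942-46169326 and Pgk1 at chrX:103382439-103399038. The library kit does not mark strand, so reads from genes that overlap on opposite strands cannot be told apart. Of the distinct 50-base stretches of its transcripts, Bnip3 shared 18.9% with other annotated genes and Ldha 8.53%. Pfkp shared 6.73% of its 50-base stretches with Pitrm1, and Ankrd37 shared 11.4% with Lrp2bp and Ufsp2. Slc2a1 shared 1.90% and Vegfa 0.106%, while Hk2 and Egln3 shared 0.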

How the data were processed

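RNA of LCM and whole lung samples was sequenced from TruSeq RNA v2 libraries, which do not mark strand. The authors trimmed reads with Trimmomatic, aligned them to mm9 with STAR and deposited expected counts per Ensembl gene from RSEM (37310 genes, 40 columns); the annotation release is not given in the sources used here. Samples failing the study's quality control (15) were left out of the comparisons. The expected counts were rounded to whole numbers. Log2 CPM used TMM factors and a prior count of 2. Genes with an interquartile range above 0 and a summed log2 CPM above 1 were tested (15630) with edgeR 4.0.16 quasi-likelihood fits in R 4.3.3, on grade group, median TIN per 10 units, strain and sample type. The last 3 are the covariates that the study's methods removed from the mouse data, and the model of grade was chosen here. P-values were adjusted by Benjamini-Hochberg over all tested genes (threshold 0.05), and standard errors were taken from the test statistic. The fits were tested on simulated data. Interactions and rank of grade were added as terms in separate fits.

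The 10 genes, the pathway and marker lists and the tests were chosen with earlier results of these data known. The text gives each of the 10 genes or their range in each comparison, pathway genes past the threshold (at most 5 each way), and for each gene the 2 genes of highest Pearson r. Alternatives were DESeq2 1.42.0, RLE factors, other gene filters and covariates, subsets of samples and leaving out each sample. Depth ran from 2667387 to 16534728 counts per sample, and the lowest expected count of a gene of the 10 in a sample was 14 (Egln3, mild sample 5), so counting error is largest there. Gene names matched the NCBIM37 annotation for 37310 IDs. A few genes that these rules would name are not reported here.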

Additional observations from a re-analysis of the deposited data

Results flagged for a closer look

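Of 30 sets of values, the 10 genes in normal (7), mild (5) and moderate to severe (9) samples, 2 held a sample far from the others by Dixon's ratio, which chance gives in about 1 in 20 sets. Both were normal whole lung sample 71, of SWR/J, which had a median TIN of 28.9. Its Slc2a1 was 7.42 log2 CPM, against 4.36 to 5.58 in the other normal samples, and its Egln3 was 9.09, against 2.47 to 4.54. Without this sample the fitted log2 difference of Egln3 in high-grade against normal was 0.67, from −0.63 with it, and that of Slc2a1 was 0.77, from 0.23, and neither was called.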

How the results depend on the processing

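In high-grade against normal the count of called genes stayed at 0 in all alternatives, and it stayed at 0 for rank of grade and both interactions. Without TIN, 2 genes were called in high-grade against mild dysplasia (Ldha, Pgk1) and 2 by strain (Vegfa, Egln3), and DESeq2 called 1 by strain (Vegfa). On TIN, 4 genes were called without strain and sample type (Slc2a1, Pfkp, Pgk1, Egln3) and 1 in whole lung alone (Egln3). The Vegfa call by source went to 0 without the 2 samples described with another histology and without TIN under 40. Leaving out 1 sample gave 0 to 1 calls in mild dysplasia against normal (1 without sample 46), by source and on TIN (1 without sample 73). The cause was not tested.

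Of 90 fitted fold changes, 28 kept their sign in every alternative. In high-grade against normal, signs changed in whole lung alone for Slc2a1 (−0.045), Ldha (−0.10), Pgk1 (−0.36), Ankrd37 (−0.25) and Bnip3 (−0.20), and in SWR/J alone for Pgk1 (−0.15), Ankrd37 (−0.64) and Bnip3 (−0.21). Ankrd37 was at −0.11 without the 2 samples described otherwise, and Egln3 at 0.23 in LCM alone and 0.11 without TIN under 40. Leaving out 1 sample gave −0.016 to 0.77 for Slc2a1, −0.12 to 0.80 for Ankrd37 and −1.04 to 0.67 for Egln3. The others kept their sign: Hk2 0.46 to 1.18, Pfkp −0.44 to −0.13, Ldha 0.27 to 0.77, Pgk1 0.065 to 0.60, Eno1 0.087 to 0.56, Vegfa 0.15 to 0.91 and Bnip3 0.030 to 0.52. The highest value came without normal sample 71 for Slc2a1, Pfkp, Ldha, Pgk1, Vegfa, Ankrd37 and Egln3. In mild dysplasia against normal, Egln3 was at 3.92 in whole lung alone, with TIN in the model. Its whole lung means went the other way, at 3.39 in mild (n = 2) and 4.81 in normal samples (n = 4). These mild samples had higher TIN than every whole lung normal sample. In high-grade against mild, Ldha and Pgk1 were at −0.55 and −0.57 in whole lung alone with TIN in the model, though their whole lung means were higher in high-grade. Vegfa was at 0.24 without strain and sample type. TIN slopes without TIN under 40 were 0.20, 0.14 and 0.30 for Slc2a1, Pgk1 and Egln3. Mean levels moved by less than 1 SD in 59 of 60 settings of prior count or scaling, the exception being Ankrd37 in mild dysplasia (3.14, and 3.35 without TMM factors).

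Counts over all genes moved more. From 3 in high-grade against normal they went to 95 in DESeq2, from 1945 in mild dysplasia to 3653 in DESeq2 and 0 in either source alone, from 51 in high-grade against mild to 2339 without TIN, from 41 for rank to 539 in DESeq2, from 2279 by source to 565 in SWR/J alone, from 155 by strain to 2493 without TIN, and from 1143 on TIN to 2862 without strain and sample type and 0 in LCM alone.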
